A study of Sus scrofa with 16 samples.

Results

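Transcripts of the enzymes of glycolysis and of the tricarboxylic acid cycle were examined in the left ventricle of 16 young pigs. The genes were taken from a list of 42, with 20 glycolytic genes and 22 genes of pyruvate entry, the cycle and the aspartate shuttle. A gene was included where a probe set, a group of short DNA probes against a transcript, carried its symbol in the platform annotation. That held for 34 genes on 41 of the 23935 probe sets tested, 14 of them glycolytic and 20 of the cycle. Each gene is represented by its brightest probe set unless another is named. HK2, PFKFB1, PFKFB2, PFKFB3, ALDOA, PGAM1, PDK1 and PDK2 were not named by any probe set and were not analysed here.

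The animals were Yorkshire x Landrace crosses aged 2 to 3 months, with 1 Affymetrix porcine array each. The exercised group held 8 pigs that had been trained, and the sedentary group held 8 that had not. Each group had 4 females and 4 neutered (castrated) males, and RNA was isolated 4 to 5 weeks after the protocol began. The labels give no genetic modification or drug, and they do not give the form of exercise or its intensity. The series is titled as a study of physiological hypertrophy of the left ventricle, and heart weights were not analysed here.

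Glycolysis splits glucose into pyruvate in the cytosol and yields a little ATP without oxygen. The pyruvate dehydrogenase complex converts pyruvate to acetyl-CoA, kinases of the PDK family switch it off and PDP phosphatases switch it on. The cycle in the mitochondrion then oxidises acetyl-CoA and passes its electrons to the respiratory chain. Adult heart muscle burns mainly fatty acids, with glucose and lactate as further fuels, and its mitochondria are abundant.

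The tissue label was checked against marker genes. The 9 ventricular cardiomyocyte markers that were named had mean levels of 11.56 (RYR2) to 14.61 log2 (MYL2), and the 4 fast skeletal muscle markers had 3.93 (MYH2) to 5.37 log2 (TNNI2). Of the markers of atrial, skeletal, blood, fat, vascular, stromal and immune cells, CD3G (0.56), CD79B (0.26) and NPPA (-0.78 log2) differed between the groups with adjusted p values of 0.0155, 0.0126 and 0.0457. An adjusted p under 0.05 in limma was reached by 13.4% of all probe sets tested, so these calls are not read as changes of cell types. CD79B and CD3G were dim, with mean levels of 4.00 and 5.38 log2, and the other lymphocyte marker, CD3E, gave 0.18 (adjusted p = 0.645). The other atrial markers, MYL4 and SLN, gave -0.32 and -0.36 (adjusted p = 0.33 and 0.287). The part of these markers in the results was not tested. In tissue, fewer cells of a type and less RNA per cell cannot be told apart.

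A technical difference between arrays touches several of the genes. Control transcripts with poly-A tails, added to the RNA before labelling, averaged 7.64 ± 0.34 log2 (SD) on 11 arrays and 5.99 ± 0.20 on the other 5, which were exercised 7 and 8 and sedentary 6, 7 and 8. The labels name no such split. The gap between the 3′ and 5′ probe sets of a transcript depends on how far it was copied and on how intact the RNA was. For actin the gap was 2.625 log2 on the 11 arrays and 1.501 on the 5, while that of GAPDH was -0.191 and -0.139. Of the 11 arrays 7 were from females, and of the 5 arrays 1 was. The 11 arrays are called the high-control arrays and the 5 the low-control arrays.

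Read from their brightest probe sets, no glycolytic or cycle gene passed the threshold for training. Of 14 glycolytic genes 0 passed an adjusted p of 0.05 in limma, and of 20 cycle genes 0 passed, against 13.4% of all probe sets tested and 4.69% of those above the 60th percentile of level. All but PC of the 34 genes lay above that percentile, so the second share is the nearer background, and a count of 0 is not a result particular to these genes. At an unadjusted p under 0.05 there was 1 glycolytic gene (TPI1) and there were 3 cycle genes (PDHA1, SUCLA2 and MDH1), or 11.8% of the 34, against 27.0% of all probe sets and 15.3% of the bright ones.

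The differences, exercised minus sedentary on the log2 scale throughout, were small. Their median was 0.029 over the glycolytic genes, of which 8 lay above 0 and 6 below. Over the cycle genes it was 0.060, with 17 above 0 and 3 (CS, OGDH and SUCLG1) below. Single animals moved these medians: the cycle median was 0.017 without exercised 5 and 0.11 without sedentary 8, and leaving out single animals moved the glycolytic median between 0.0036 (without sedentary 5) and 0.036, with 0.0070 without exercised 5. The median over all probe sets was 0.0037, with 50.9% above 0, and over the bright ones 0.0086, with 52.6% above 0. For 32 of the 34 genes the 95% interval of the difference stayed within 0.5 log2 of 0 on both sides, which was so for 19137 of all 23935 probe sets. The exceptions were ALDOC, with a lower bound of -0.54, and OGDH, with an interval from -0.52 to 0.48.

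**Figure D1:**
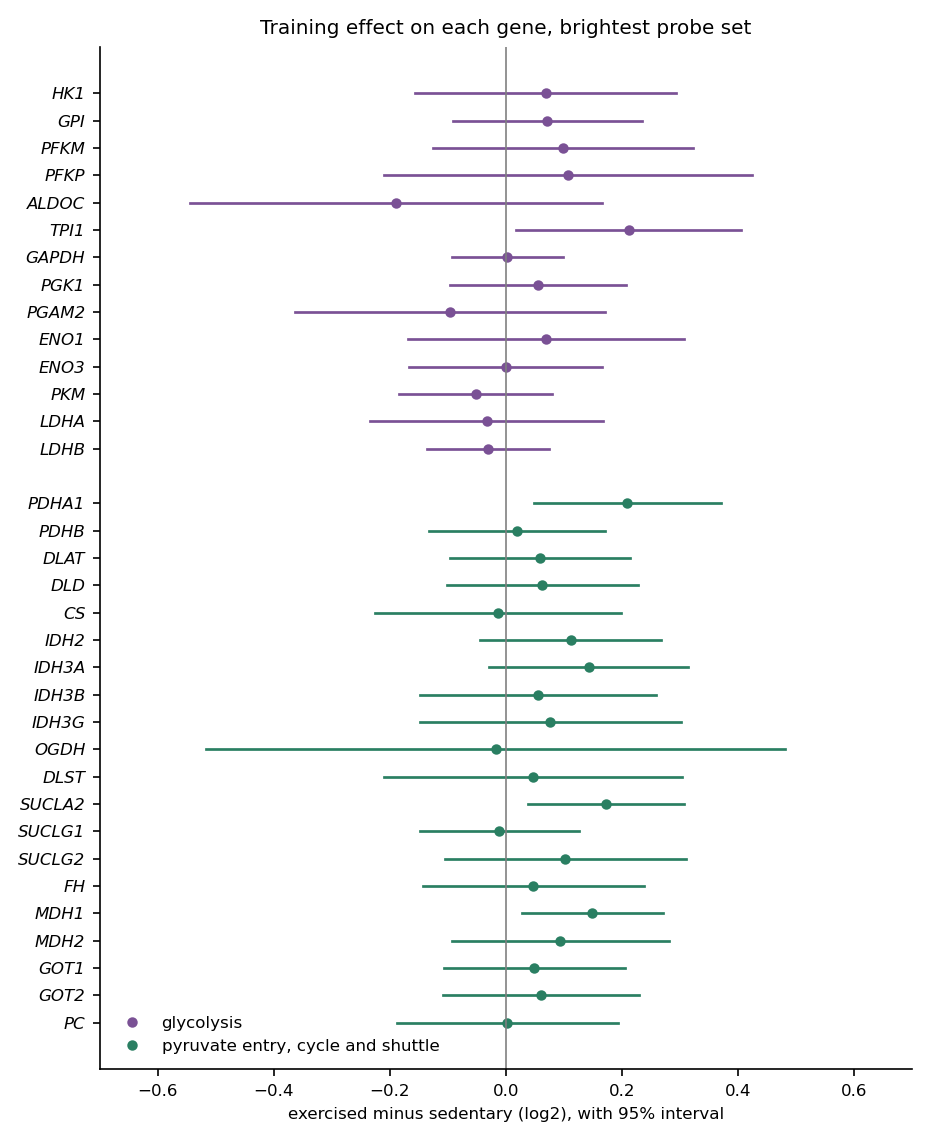
Difference between 8 exercised and 8 sedentary pigs (x axis, log2, exercised minus sedentary) for 14 glycolytic and 20 cycle genes, each with its 95% interval from limma. The intervals of TPI1, PDHA1, SUCLA2 and MDH1 lie above 0, but none of the 34 genes passed the adjusted threshold.

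TPI1 encodes triose phosphate isomerase, which interconverts the 3-carbon products of aldolase, and had the smallest p of the glycolytic genes. Its signal ran from 11.63 over a median of 11.88 to 12.09 log2 in exercised pigs and from 11.42 over 11.59 to 11.96 in sedentary ones. The 4 highest animals were all exercised and the 4 lowest all sedentary, and the groups overlapped in between. Means were 11.86 ± 0.18 and 11.65 ± 0.20 log2 (SD, n = 8 each), a difference of 0.21 (SE 0.0913) that is 1.16-fold, with an adjusted p of 0.147. TPI1 was higher by 0.25 on the low-control arrays, 3 of which were sedentary. With the array set as a term in the model the difference was 0.24, with an adjusted p of 0.0302, and 18.1% of all probe sets then passed. It also passed without sedentary 8, at 0.27 with an adjusted p of 0.0353 in limma, where 13% of all probe sets passed. Sedentary 8 was the highest sedentary animal for TPI1, so leaving it out could only enlarge the rise. With arrays weighted by quality TPI1 passed at 0.26, with an adjusted p of 0.0322 in limma, and 15.8% of all probe sets passed. Sedentary 8 had the lowest of those weights, 0.375, so these passes are not separate evidence. The plain difference was 0.29 within the high-control arrays and 0.15 within the low-control arrays.

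ALDOC encodes aldolase C, the aldolase best known from brain. It ran from 6.51 over 7.47 to 7.94 log2 in exercised and from 6.88 over 7.66 to 7.93 in sedentary pigs. The lowest 2 animals, exercised 2 and exercised 1, were both females, and the whole sedentary range lay inside the exercised one. The difference was -0.19 (SE 0.167, adjusted p = 0.524).

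PFKM, the muscle form of phosphofructokinase, catalyses the main committed step of glycolysis. Its signal ran from 11.71 over 12.09 to 12.54 log2 in exercised and from 11.70 over 11.99 to 12.29 in sedentary pigs. Exercised 5 alone stood above all sedentary animals. The difference was 0.098 (SE 0.105, adjusted p = 0.613).

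GAPDH, the dehydrogenase of the pathway and a common reference gene, gave different answers by probe set. The brightest ran from 14.33 over 14.41 to 14.48 log2 in exercised and from 14.36 over 14.40 to 14.47 in sedentary pigs. These ranges nearly coincide, and the difference was 0.0026 (SE 0.0450, adjusted p = 0.981). That level is close to the highest value in the table, 14.86 log2, and the SD over 16 animals, 0.0431, was the smallest of the 34 genes. Whether the signal was still proportional to the transcript there was not tested. A probe set with a mean level of 6.00 rose by 0.40 (SE 0.0766, adjusted p = 0.00294), from 5.63 over 5.77 to 6.01 in sedentary to 6.03 over 6.19 to 6.55 log2 in exercised pigs, with no overlap. Groups did not overlap for 3.12% of all probe sets. The remaining GAPDH probe sets, with levels of 14.12, 11.14 and 3.84 log2, gave -0.061, -0.11 and 0.14, with adjusted p values of 0.497, 0.796 and 0.0915. The 9 GAPDH control probe sets of the array, which were not in the test, differed by -0.12 to 0.019. Which transcript the dim probe set reads was not tested.

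The first enzymes of the pathway gave small differences. HK1, the hexokinase that traps glucose in the cell, had a mean level of 11.38 log2 and a difference of 0.069 (SE 0.106). GPI, glucose-6-phosphate isomerase, had a level of 11.29 and a difference of 0.072 (SE 0.0769). PFKP, the platelet form of phosphofructokinase, had a level of 7.69 and a difference of 0.11 (SE 0.149). All 3 lay above 0 by no more than their standard errors.

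The later enzymes divided by sign. PGK1, the kinase that forms the first ATP of the pathway, had a level of 12.32 and a difference of 0.056 (SE 0.0715). PGAM2, the muscle phosphoglycerate mutase, had 11.66 and -0.097 (SE 0.126). Of the enolases, ENO1, the widely expressed form, had 10.18 and 0.069 (SE 0.112), and ENO3, the muscle form, had 13.28 and -0.00038 (SE 0.0781). None of these differences exceeded its standard error. PKM, pyruvate kinase, had a level of 8.02 and a difference of -0.052 (SE 0.0620), and its dimmer probe set gave -0.13 (adjusted p = 0.111). LDHA and LDHB, the subunits of lactate dehydrogenase common in fast muscle and in heart, had levels of 10.63 and 13.97 and differences of -0.033 (SE 0.0943) and -0.032 (SE 0.0496). On the brightest probe sets the differences of PKM, LDHA and LDHB all lay below 0 by less than their standard errors.

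Isoform balance was compared within arrays for the 3 of 7 listed pairs in which both genes were named. PFKM minus PFKP was 4.34 ± 0.43 log2 (SD, n = 8) in exercised and 4.35 ± 0.39 in sedentary pigs, a change of -0.0084. ENO3 minus ENO1 was 3.06 ± 0.35 and 3.13 ± 0.38, a change of -0.069. LDHB minus LDHA was 3.34 ± 0.18 and 3.33 ± 0.19, a change of 0.0016. Two-sided exact permutation tests over 12870 assignments of the arrays gave p values of 0.969, 0.706 and 0.986, each adjusted to 0.986 over the 3 pairs. These gaps also hold the unequal response of different probes, so only their change between groups can be read.

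PDHA1 encodes the catalytic alpha subunit of pyruvate dehydrogenase, which PDK enzymes phosphorylate. Its signal ran from 10.70 over 10.94 to 11.22 log2 in exercised and from 10.48 over 10.75 to 10.91 in sedentary pigs. The 5 highest animals were exercised, 4 of them females, and the 3 lowest were the sedentary low-control arrays. Means were 10.93 ± 0.18 and 10.72 ± 0.15 (SD, n = 8 each), a difference of 0.21 (SE 0.0758), or 1.16-fold, with an adjusted p of 0.0829. PDHA1 was lower by 0.27 on the low-control arrays. With the array set in the model the difference was 0.18 (adjusted p = 0.0583), and the plain differences were 0.16 within the high-control and 0.23 within the low-control arrays. With sex in the model the fit within the high-control arrays gave 0.12 (adjusted p = 0.378 in limma). Array weights gave 0.15 (adjusted p = 0.145). In castrated males alone the difference was 0.093 (adjusted p = 0.758), and in females 0.33 (adjusted p = 0.108). Sedentary 8 was the only female on a low-control array and had the lowest PDHA1 signal of all pigs, 10.48 log2. The array set thus enters the female difference on the sedentary side only.

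The other subunits of the complex lay nearer 0. PDHB, the beta subunit, had a level of 11.91 and a difference of 0.019 (SE 0.0714). DLAT, the acetyltransferase core, had 10.18 and 0.059 (SE 0.0729). DLD, the dehydrogenase that the related complexes share, had 11.64 and 0.062 (SE 0.0774). PDHA1 thus stood alone among the 4 measured subunits in having an interval above 0, and the difference between subunits was not tested. PC, pyruvate carboxylase, which refills the cycle, had a level of 6.56, the only one below the 60th percentile, and a difference of 0.0023 (SE 0.0895).

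SUCLA2 is the ATP-forming beta subunit of succinyl-CoA ligase. It ran from 11.22 over 11.39 to 11.57 log2 in exercised and from 11.03 over 11.23 to 11.35 in sedentary pigs. The 5 highest animals were exercised and the 4 lowest sedentary. Means were 11.38 ± 0.13 and 11.21 ± 0.11 (SD, n = 8 each), a difference of 0.17 (SE 0.0633), or 1.13-fold, with an adjusted p of 0.0854. Without exercised 8 it was 0.20 with an adjusted p of 0.0499 in limma, where 12.4% of all probe sets passed. Exercised 8 was the lowest exercised castrated male for SUCLA2, so leaving it out could only enlarge the rise. This pass is not separate evidence. At an adjusted p of 0.1 PDHA1 and SUCLA2 would pass, as would 19.3% of all probe sets. SUCLA2 differed by only -0.013 between the low-control and high-control arrays. SUCLG1, the alpha subunit, had a level of 12.13 and a difference of -0.012 (SE 0.0644), and SUCLG2, the GTP-forming beta subunit, had 9.61 and 0.10 (SE 0.0980).

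MDH1, the cytosolic malate dehydrogenase of the malate-aspartate shuttle that carries reducing power into the mitochondrion, was the third cycle gene by p. It ran from 13.48 over 13.59 to 13.72 log2 in exercised and from 13.35 over 13.42 to 13.62 in sedentary pigs. All 8 exercised animals lay above the sedentary median, and 6 sedentary animals lay below the lowest exercised one, with the castrated males sedentary 3 and sedentary 5 inside the exercised range. The means, 13.59 ± 0.072 and 13.45 ± 0.10 (SD, n = 8 each), differed by 0.15 (SE 0.0570), or 1.11-fold, with an adjusted p of 0.1. The plain differences were 0.14 within the high-control and 0.12 within the low-control arrays.

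Its mitochondrial counterpart MDH2 had a level of 12.29 and a difference of 0.094 (SE 0.0877). GOT1 and GOT2, the cytosolic and mitochondrial aspartate transaminases of the shuttle, had levels of 12.25 and 12.62 and differences of 0.049 (SE 0.0732) and 0.061 (SE 0.0795). All 4 shuttle enzymes lay above 0, and none passed.

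**Figure D2:**
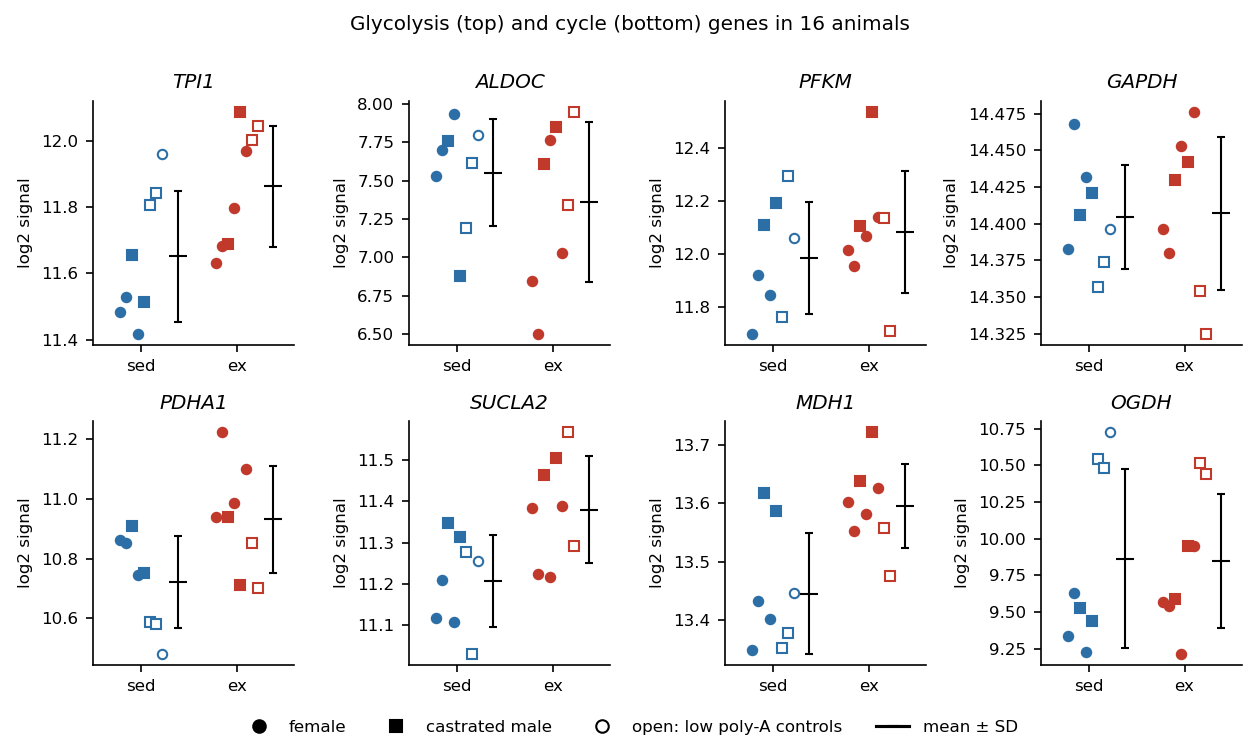
Log2 signal in each of 16 pigs for 4 glycolytic genes (top) and 4 cycle genes (bottom), with the mean ± SD of each group of 8; circles are females, squares castrated males, open symbols the low-control arrays. The groups overlap in all 8 panels, and for OGDH the 5 open symbols lie above all the others.

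The steps between citrate and oxaloacetate followed the same range. CS, citrate synthase, an enzyme often measured as an index of mitochondrial content, had a level of 12.80 and a difference of -0.014 (SE 0.0998), and its other probe set gave 0.026. IDH2, the NADP-linked isocitrate dehydrogenase, had 12.95 and 0.11 (SE 0.0734). IDH3A, the catalytic subunit of the NAD-linked enzyme, had 11.11 and 0.14 (SE 0.0805), with 0.15 from its other probe set. The interval was -0.23 to 0.20 for CS and -0.044 to 0.27 for IDH2, and 6 and 7 of 8 exercised animals lay above the sedentary median. IDH3B and IDH3G, the regulatory subunits, had levels of 9.15 and 10.23 and differences of 0.055 (SE 0.0957) and 0.076 (SE 0.106). OGDH, the first component of the 2-oxoglutarate dehydrogenase complex, had 9.85 and -0.017 (SE 0.235). DLST, its second component, had 11.06 and 0.047 (SE 0.121), and FH, fumarase, had 11.41 and 0.047 (SE 0.0897).

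Over the 34 genes the set of arrays went with a larger median shift, in absolute size, than training did. It was 0.154 log2 between the sets and 0.0616 for training, against 0.228 and 0.0981 over the bright probe sets. OGDH, picked out after its values were seen, averaged 9.54 ± 0.25 log2 on the 11 high-control arrays and 10.54 ± 0.11 on the 5 low-control arrays, a gap of 1.00. Its lowest low-control array was at 10.44 and its highest high-control array at 9.95. The 2 sets also did not overlap for DLST (0.51), PGAM2 (0.45), IDH3G (0.37) and HK1 (0.34), all higher on the low-control arrays. That makes 5 of the 34 genes, or 14.7%, against 8.53% of all probe sets and 15.9% of the bright ones. FH, by contrast, was lower by 0.30 on the low-control arrays, and 19 of the 34 genes in all were higher there.

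The signs were also read within each set. Within the high-control arrays (6 exercised with 4 females, 5 sedentary with 3) all 20 cycle genes had plain differences above 0, with a median of 0.13, against 51.7% of all probe sets and 53.6% of the bright ones. Within the low-control arrays (2 exercised with 0 females, 3 sedentary with 1) 6 of the 20 lay above 0, with a median of -0.038, against 49.0% of all probe sets. Glycolytic genes lay above 0 for 9 of 14 in the high-control and 5 of 14 in the low-control arrays. Without exercised 5, an alternative added after seeing the data, 18 of the 20 lay above 0 in the high-control arrays (PDHB and SUCLG1 did not), with a median of 0.083. A fit within the high-control arrays called 0 of the 34 genes and 10.3% of all probe sets. One within the low-control arrays called 0 of all probe sets, so its count for these genes says nothing about them. The difference between the sets was not tested, and the cycle genes of a pig share an array and so are not separate observations.

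The mean level of the 20 cycle genes varied between animals. With 1 array for each animal, differences between animals and between arrays cannot be told apart. The mean deviation of the 20 cycle genes from their averages over all pigs ran from -0.078 over 0.024 to 0.21 log2 in exercised and from -0.19 over -0.015 to 0.093 in sedentary animals. Exercised 5, a castrated male, was the highest, with 17 of the 20 genes above their mean and the highest signal of all animals for 14 of the 34 genes. Sedentary 4, a female, was the lowest, with 1 of 20 above. On the high-control arrays the group means were 0.031 and -0.085, and on the low-control arrays 0.049 and 0.048. The glycolytic mean ran from -0.15 to 0.10 in exercised and from -0.11 to 0.11 in sedentary animals, so the groups covered almost the same range.

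**Figure D3:**
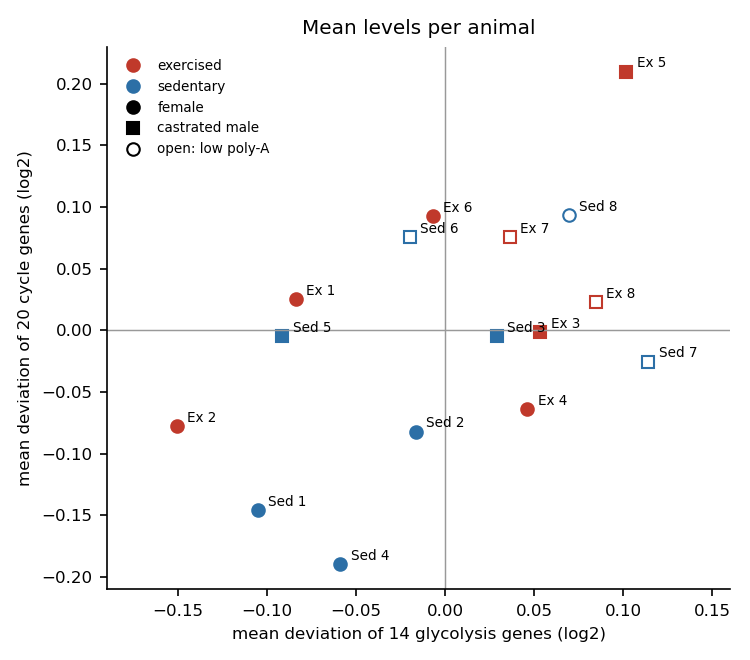
Each point is 1 pig, placed by the mean deviation of 14 glycolytic genes (x axis, log2) and 20 cycle genes (y axis, log2) from their averages over the 16 pigs. Exercised 5 lies highest at 0.21 for the cycle, sedentary 4 and sedentary 1 lie lowest, and the groups overlap on both axes.

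The training effect was compared between the sexes. Of the females only sedentary 8 was on a low-control array. Of the castrated males exercised 7 and 8 and sedentary 6 and 7 were. In females 0 of the 34 genes passed, against 3.72% of all probe sets, and in castrated males 0 passed, against 3.77%. Of the 9574 bright probe sets 46 rose and 30 fell past the threshold in females, and 25 rose and 40 fell in males. These counts of 0 are thus not particular to the 34 genes. At an unadjusted p under 0.05 there were 4 genes (11.8%) in females, against 18.2% of all and 10.2% of bright probe sets. In males there was 1 (2.94%), against 17.3% and 7.23%. In females the smallest p values belonged to PDHA1, at 11.06 ± 0.13 in exercised and 10.74 ± 0.18 log2 in sedentary animals (SD, n = 4 each), a difference of 0.33 with an adjusted p of 0.108 in limma, and to ALDOC. In males they belonged to SUCLA2, at 11.46 ± 0.12 and 11.24 ± 0.14, a difference of 0.22 with an adjusted p of 0.215 in limma, and to TPI1, with 0.25 and an adjusted p of 0.342. The GAPDH probe set at a level of 6.00 rose by 0.52 in males (adjusted p = 0.0163), and its difference in females was 0.29 (adjusted p = 0.162).

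ALDOC differed most between the sexes. In females it was 7.04 ± 0.53 log2 in exercised and 7.74 ± 0.17 in sedentary animals (SD, n = 4 each), a difference of -0.70 with an adjusted p of 0.116 in limma. In castrated males the values were 7.69 ± 0.27 and 7.36 ± 0.40, a difference of 0.32 with an adjusted p of 0.552 in limma. Of the exercised females 3 lay below every sedentary female, and exercised 4 lay inside their range. Without exercised 4, the highest of the exercised females, the female difference passed the threshold. Leaving out that animal could only enlarge the fall, so this pass is not separate evidence. The female effect minus the male effect was -1.03 (SE 0.334), with an unadjusted limma p of 0.00755 and an adjusted p of 1. For IDH3A, next by p, it was 0.26 (SE 0.161, adjusted p = 1). No probe set of the array passed this test, and 2.59% had an unadjusted p under 0.05, against 1 of the 34 genes.

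**Figure D4:**
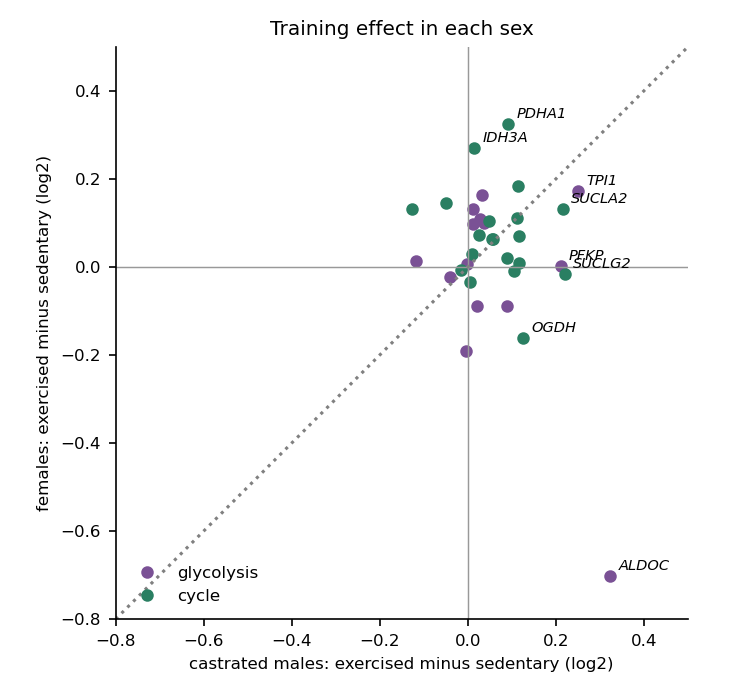
Training effect (exercised minus sedentary, log2) in castrated males (x axis) against females (y axis), 4 against 4 animals in each sex, for 14 glycolytic and 20 cycle genes, with a dotted line where both are equal. ALDOC lies apart at 0.32 and -0.70, and 23 of the 34 genes have the same sign in both sexes.

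Averaged over training, 27 of the 34 genes had lower signals in females than in castrated males, with a median of -0.077 log2, whereas 47.7% of all probe sets lay above 0 and their median was -0.0067. None of the 34 passed, against 0.0919% of all probe sets, and 5 had an unadjusted p under 0.05, or 14.7% against 9.26% of all and 12.2% of bright probe sets. The smallest p values were those of DLST (-0.30, SE 0.121) and GOT1 (-0.18, SE 0.0732), both with an adjusted p of 0.537. Of the 5 low-control arrays 1 was from a female, and DLST was higher by 0.51 on those arrays, as given above. The part of the array set in this sex difference was not tested.

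Other genes of the pathway were read from a list of 68, of which 47 were named on the array. Of these 3 rose (6.48% of all probe sets did), 1 fell (6.88% did) and 43 did not pass, with a median of -0.023. Those that passed were PDP2, FBP2, OGDHL and PCK1, all of them dim, below the 60th percentile of level at 6.88 log2. With a filter at that percentile 0 of 31 genes passed, against 0.804% of all probe sets above it. With a filter at the 40th percentile, 5.57 log2, PDP2 alone of 38 passed, against 4.39% of all probe sets above that.

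PDP2 encodes a phosphatase that reactivates pyruvate dehydrogenase. Its signal ran from 6.76 over 6.95 to 7.10 log2 in exercised and from 6.41 over 6.62 to 6.75 in sedentary pigs. The groups did not overlap, as for 3.12% of all probe sets, although the nearest animals lay almost together. PDP2 rose by 0.33 (SE 0.0650, adjusted p = 0.00339), or 0.43 in females (adjusted p = 0.0164) and 0.24 in males (adjusted p = 0.182).

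PDK4 encodes the kinase that inactivates the same complex and is known to rise with fasting and fatty acid use. It ran from 9.65 over 11.29 to 12.39 log2 in exercised and from 10.74 over 12.12 to 12.69 in sedentary pigs. Of the exercised animals 7 lay below the sedentary median, yet the ranges overlapped widely. The difference was -0.78 (SE 0.383), with an interval from -1.59 to 0.035 and an adjusted p of 0.206. Its other probe set gave -0.96 (adjusted p = 0.188). PDK4 thus had the largest difference of the 47 genes and did not pass.

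FBP2, the muscle fructose-bisphosphatase that opposes phosphofructokinase, ran from 5.02 over 5.21 to 5.30 log2 in exercised and from 4.72 over 4.79 to 5.08 in sedentary pigs. It rose by 0.38 (SE 0.0635, adjusted p = 0.00113), and sedentary 6 alone lay inside the exercised range. OGDHL, a homologue of OGDH, ran from 4.59 over 4.83 to 4.97 in exercised and from 4.25 over 4.37 to 4.67 in sedentary pigs and rose by 0.39 (SE 0.0763, adjusted p = 0.00347). PCK1, cytosolic phosphoenolpyruvate carboxykinase, a gluconeogenic enzyme, ran from 5.03 over 5.23 to 5.33 in exercised and from 5.37 over 5.56 to 5.71 in sedentary pigs. Its groups did not overlap, as for 3.12% of all probe sets, and it fell by 0.35 (SE 0.0570, adjusted p = 0.000875). All 3 had mean levels below the 40th percentile.

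The glucose carriers that were always to be named did not pass. SLC2A1, the basal carrier, ran from 6.65 over 7.50 to 7.79 log2 in exercised and from 6.65 over 7.53 to 8.13 in sedentary pigs, with a difference of -0.11 (SE 0.187, adjusted p = 0.759). SLC2A4, the insulin-responsive carrier, ran from 7.00 over 7.34 to 8.41 and from 7.03 over 7.42 to 8.72, with a difference of -0.14 (SE 0.236, adjusted p = 0.768). Its highest values were on low-control arrays, which averaged 0.99 above the rest. The dimmer SLC2A4 probe sets went opposite ways, at 6.56 log2 with -0.35 (adjusted p = 0.00924) and at 5.61 log2 with 0.40 (adjusted p = 0.00203), so the gene has no settled direction here. SDHA, the flavoprotein of succinate dehydrogenase, ran from 11.87 over 12.07 to 12.48 in exercised and from 11.73 over 12.09 to 12.56 in sedentary pigs, with a difference of -0.037 (SE 0.121, adjusted p = 0.89).

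**Figure D5:**
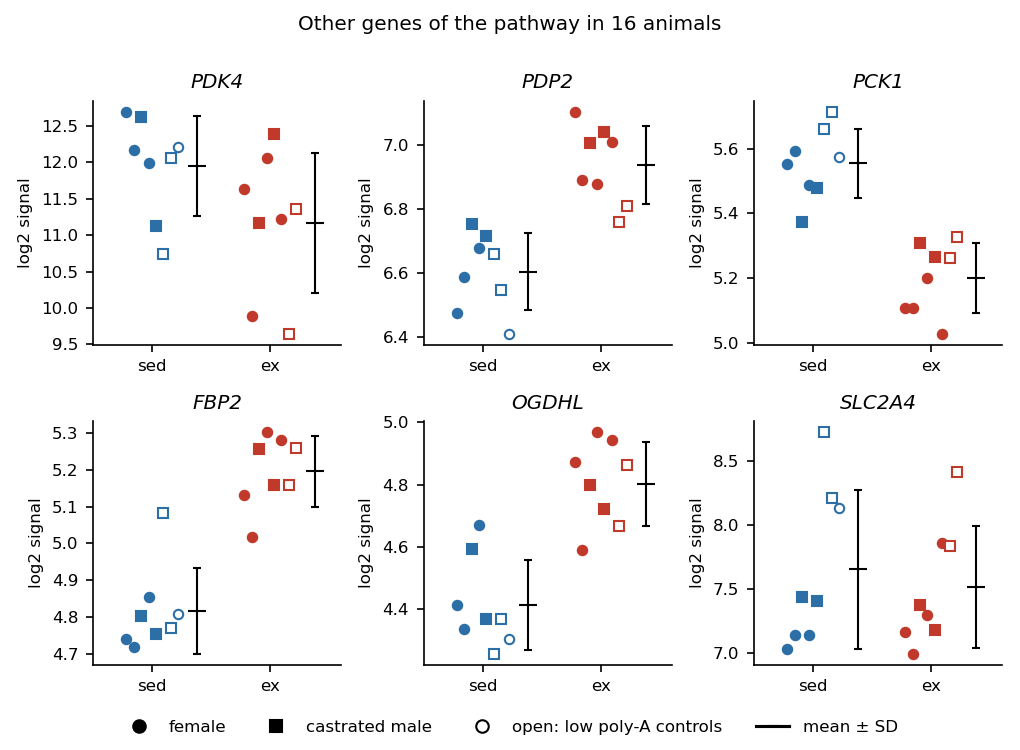
Log2 signal in each of 16 pigs for 6 other genes of the pathway, with the mean ± SD of each group of 8 and the same symbols for sex and array set as in the plot of single genes. PDP2 and PCK1 separate the groups without overlap, as did 3.12% of all probe sets. FBP2 and OGDHL overlap slightly, and PDK4 and SLC2A4 overlap widely.

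By role, the remaining named genes did not pass. The subunits SDHB, SDHC and SDHD of succinate dehydrogenase gave 0.11, -0.017 and -0.056. MPC1 and MPC2, which together form the mitochondrial pyruvate carrier, gave -0.10 and 0.10. Of 9 shuttle and supply genes 0 passed and 5 lay above 0, with a median of 0.16. Among them GPD1, cytosolic glycerol-3-phosphate dehydrogenase, was picked out after its values were seen, with a difference of 0.63 (SE 0.209, adjusted p = 0.0576). It passed with the array set in the model (0.69, adjusted p = 0.0219) and when sedentary 7 or sedentary 8 was left out. Of all probe sets 18.1%, 11.6% and 13% passed in those 3 settings. Of the 6 regulators 0 passed and 5 lay below 0, with differences from -0.56 to 0.057 over the 6. Among those below 0 was PPARGC1A, a coactivator of mitochondrial genes, at -0.21 (SE 0.137, adjusted p = 0.355). HIF1A, the hypoxia factor that induces glycolytic genes, was another, at -0.023 (SE 0.136, adjusted p = 0.943).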

How the data were processed

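RNA of 16 left ventricles was labelled with biotin and hybridised to an Affymetrix porcine array, per the labels' protocols. The authors deposited 1 log2 value for each probe set and array, from 2.87 to 14.86, and over all 24123 probe sets the median was 6.236 on each of the 16 arrays (6.236 to 6.242 without the controls). Their summarisation and normalization methods are not given in the sources read here. Precision is limited by there being 16 arrays.

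Of 24123 probe sets 188 controls were left out. Symbols came from the platform annotation, with 1 symbol for 10069 of the 23935 probe sets tested. The model had 4 means, 1 per sex and training group, and was fitted in limma 3.58.1 (lmFit, then eBayes, in R 4.3.3). The p-values were adjusted by Benjamini-Hochberg over all 23935 probe sets, with a threshold of 0.05. Tests were two-sided. The labels describe separate animals. Plain differences within an array set are differences of group means without a term for sex. The poly-A control split used 42 probe sets, at the widest gap between arrays.

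All genes of the list that were named are given. Values by animal, as lowest, median and highest, are given for genes with a probe set past the threshold, for the 3 glycolytic and 3 cycle genes with the smallest p, for the other pathway genes that passed, and always for SLC2A1, SLC2A4, PDK4 and SDHA. A further gene of this rule is not reported here. For other contrasts the 2 genes with the smallest p are named. Members, lists and the array split were chosen with earlier results of these data known. Alternatives were other scalings, filters on dim probe sets, variance models, array weights, array set, replicate number, no sex term, other choices of probe set, other thresholds and each array left out. The fit was tested on simulated data. Isoform pairs were tested in Python 3.11.15, and figures were drawn with matplotlib 3.10.9.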

Additional observations from a re-analysis of the deposited data

Results flagged for a closer look

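In groups of 8, an animal was marked where its gap to the nearest other exceeded 0.526 of the group's range (Dixon's test at 95%). Of 84 groups examined 6 had such an animal, and chance marks about 1 in 20. Exercised 5 was the highest of its group for DLD (12.05 log2, next 11.73), IDH2 (13.29, next 13.05) and GOT2 (13.03, next 12.70). The mitochondrial enzymes these genes encode thus share 1 animal, which also had the highest cycle mean. Sedentary 5 was the lowest of its group for PFKP, at 6.934 log2 against 7.569 for the next. Sedentary 2 was the lowest for LDHB, at 13.82 against 13.97. Sedentary 6 was the highest for FBP2, at 5.083 against 4.854, and it was the one sedentary animal inside the exercised range of that gene.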

How the results depend on the processing

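Each count was recomputed under 15 other settings and with each of 16 arrays left out. The glycolytic count of 0 became 1 with array weights, with the array set as a term (both TPI1) and with the probe set of smallest p (GAPDH), and leaving out single arrays gave 0 to 1 (TPI1 without sedentary 8). The cycle count became 2 (PDHA1 and SUCLA2) at an adjusted p of 0.1, where 19.3% of all probe sets passed, and leaving out single arrays gave 0 to 1 (SUCLA2 without exercised 8). In females it was 0 to 1 (ALDOC without exercised 4), and in castrated males 1 with the probe set of smallest p (GAPDH). The count of 4 other pathway genes became 1 and 0 with filters at the 40th and 60th percentiles, 7 with array weights (15.8% of all probe sets), 0 within the low-control arrays, 8 with the probe set of smallest p, 9 at an adjusted p of 0.1 and 0 with a size of at least 0.5 log2. Leaving out single arrays gave 4 to 7, with 7 without sedentary 7 or sedentary 8 and 6 without exercised 8 or sedentary 5. In those settings 11.6%, 13%, 12.4% and 12.3% of all probe sets passed, in that order, against 13.4% with all arrays. The probe set of smallest p was picked by the tested p itself. That choice can only keep or raise a count, so the higher counts it gave are not separate evidence. SLC2A4 turned from -0.14 to 0.40 with the probe set of smallest p. The training call of 30 of the 34 genes was the same in every setting, while 23 took the other sign in some setting. Animals of the same replicate number were not shown to be paired: 5 of 8 pairs correlated above 0.1, and 3 of 16 arrays correlated best with their own number. With replicate number as a block, 3528 probe sets passed instead of 3197, with 7 other pathway genes and 0 of the 34. The filter at the 60th percentile left 77 calls among all probe sets, and a fit within the low-control arrays left 0.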
